A study of Mus musculus with 8 samples.

Results

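The IL-1, IL-18 and IL-36 cytokine family was followed as 10 genes of the count table, chosen by symbol from 23171 genes. They are 6 ligands (Il1a, Il1b, Il18, Il36a, Il36b and Il36g), the receptor antagonists Il1rn and Il36rn, and the receptors Il1r1 and Il1rl2. RNA came from the epidermis of imiquimod-treated mice, 4 with an epidermis-specific Hnrnpu knockout (cKO) and 4 WT controls. Both genotypes had received imiquimod, which activates Toll-like receptor signalling and is used to model psoriasis in mouse skin, and the labels put all libraries in the same batch. The promoter that drives the deletion, the deleted part of Hnrnpu, the strain, the age, and the dose and length of treatment are not stated in the labels. The labels call the cells keratinocytes. The question is whether the transcripts of this family differ in inflamed epidermis when Hnrnpu, a gene for a nuclear RNA-binding protein, is deleted there.

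IL-1α and IL-1β act through the same receptor, IL-1R1, while IL-36α, IL-36β and IL-36γ act through IL-36R, the product of Il1rl2. IL-1Ra (Il1rn) and IL-36Ra (Il36rn) occupy these receptors without starting a signal. IL-1R1 and IL-36R share the accessory chain Il1rap and signal through MyD88 and IRAK kinases to NF-κB. Keratinocytes store IL-1α and IL-18 and make large amounts of IL-36 in psoriatic skin, where loss of IL-36Ra function causes a pustular form of the disease. IL-1β is made mainly by myeloid cells and needs proteolytic cleavage to act.

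In the RefSeq annotation of GRCm38.p6, used only for names and gene order, Il36b, Il36g, Il36a, Il36rn, Il1f10 and Il1rn follow each other on chromosome 2. The IL-36 genes are listed there under their older Il1f names. Il1a and Il1b are direct neighbours elsewhere on chromosome 2, Il1r1 and Il1rl2 are neighbours on chromosome 1, and Il18 lies on chromosome 9. The genes for IL-1α and IL-1β had the largest fold changes of the family and in opposite directions, so the 250 bases before their RefSeq start sites are shown (GRCm38.p6, both on the minus strand). The windows are chr2:129309973-129310222 for Il1a and chr2:129371140-129371389 for Il1b, and capitals mark matches to TATAAA or to the AP-1 letters TGANTCA.
Il1a: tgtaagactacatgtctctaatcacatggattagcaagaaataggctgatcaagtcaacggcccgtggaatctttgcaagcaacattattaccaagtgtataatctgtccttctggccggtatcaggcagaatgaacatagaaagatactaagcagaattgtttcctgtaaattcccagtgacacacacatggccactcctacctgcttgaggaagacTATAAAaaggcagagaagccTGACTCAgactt
Il1b: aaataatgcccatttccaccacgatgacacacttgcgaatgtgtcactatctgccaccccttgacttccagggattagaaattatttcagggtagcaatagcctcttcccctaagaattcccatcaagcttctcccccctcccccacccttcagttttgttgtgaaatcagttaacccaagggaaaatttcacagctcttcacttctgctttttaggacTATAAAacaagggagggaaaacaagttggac

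Both windows hold TATAAA, beginning 32 bases before the start of Il1a and 31 bases before that of Il1b. The Il1a window also holds TGACTCA, 12 to 6 bases before the start. The NF-κB letters GGGNNNNNCC were found in neither window. Searched on both strands, TATAAA was in 12.4%, TGANTCA in 6.75% and GGGNNNNNCC in 45.8% of the 32851 RefSeq promoter windows of the same length. RefSeq windows were matched for 9 of the 10 members, all but Il36a. TGANTCA was also in the windows of Il36b and Il1rn. GGGNNNNNCC was in windows of Il1rn, Il36rn and Il1r1, and TATAAA, on the other strand, in those of Il18 and Il1rl2. These matches describe the letters of the windows and are no measure of binding.

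The libraries held 37158621 to 38865722 counts. Hnrnpu stood at 190 to 373 CPM (counts scaled to library size with TMM factors) in cKO and at 424 to 455 CPM in WT, so every cKO library was lower but kept 43.4% to 85.3% of the WT mean. Its log2 fold change of -0.51 ± 0.19 (SE) did not pass the edgeR test (adjusted p = 0.191). The 7 keratinocyte markers summed to 61120 to 85370 CPM in cKO and 70370 to 90350 CPM in WT. Markers of mast cells (at most 0.14 CPM) and endothelium (at most 1.61 CPM) were near 0. Fibroblast markers summed to 9.93 CPM in WT replicate 2, where Il1b was also highest, and to 1.09 to 4.01 CPM in the other libraries. The part of fibroblasts in the level of Il1b was not tested. In bulk RNA, fewer cells of a type and less RNA per cell cannot be told apart.

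All 10 members passed the filter on low counts. None of the 10 was called by the edgeR quasi-likelihood test at an adjusted p below 0.05, where 1.32% of the 14004 tested genes were called. Of the 10 members 2, Il1a and Il1b, had an unadjusted p below 0.05, against 18.6% of all tested genes. With DESeq2, 1 of the 10 was called, Il1a, and with limma-voom none. In no member did the 4 cKO libraries lie wholly on 1 side of the 4 WT libraries in CPM, as they did in 11.1% of tested genes. Of the 10 log2 fold changes 6 were positive and 4 negative, with a median of 0.04 beside 0.01 over all tested genes.

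**Figure D1:**
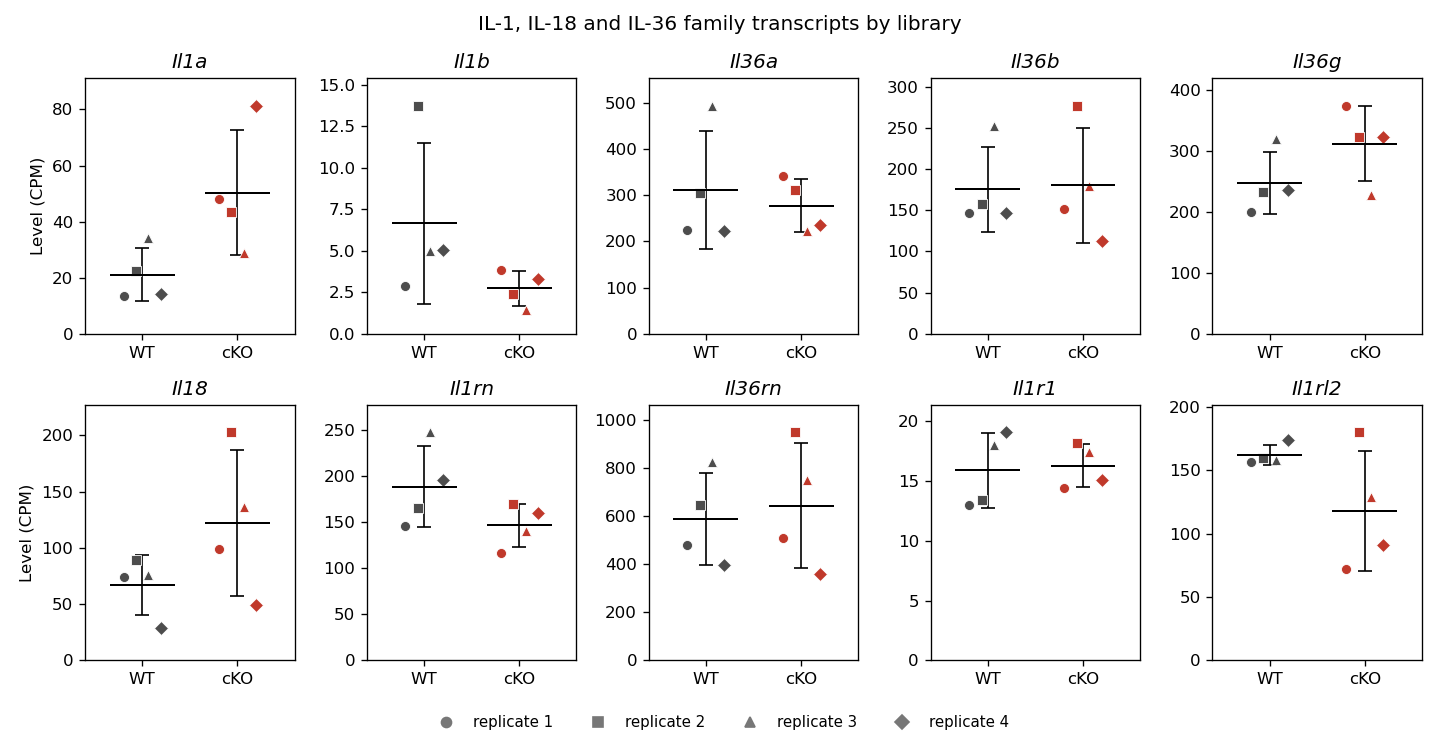
Level of each member in CPM by genotype, with 1 point per library (marker shape gives the replicate number), a line at the mean and a bar of ± 1 SD (n = 4). Il1a is higher and Il1b lower in mean in cKO, and in each panel the genotypes overlap.

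Il1a, which encodes the IL-1 precursor that keratinocytes store and release on damage, was the ligand with the highest mean in cKO relative to WT. It stood at 47.9, 43.5, 28.8 and 81.3 CPM in cKO replicates 1 to 4. In WT replicates 1 to 4 it stood at 13.6, 22.3, 34.1 and 14.3 CPM. The genotypes overlapped only because WT replicate 3 lay above cKO replicate 3, and cKO replicate 4 was far above the rest. The means were 50.4 ± 22.2 against 21.1 ± 9.52 CPM in WT (SD over 4 libraries), a fitted 2.39-fold difference with a 95% confidence interval of 1.35 to 4.24. The log2 fold change of 1.26 ± 0.37 (SE) did not pass the edgeR test (p = 0.00728, adjusted p = 0.117), and the two-sided exact permutation p was 0.0571. It was 0.93 when cKO replicate 4 was left out and 1.59 when WT replicate 3 was left out. DESeq2 gave the same size and called the gene (1.26, adjusted p = 0.0115).

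Of other cell type lists, the sums of the upper follicle and of the melanocyte markers stood higher in each cKO library than in any WT library. Sebocyte markers reached higher sums in cKO, but these sums overlapped with WT. The 5 upper follicle markers summed to 2634 to 3408 CPM in cKO and 1237 to 1852 CPM in WT. Most of this was Krt79, with a mean of 2763 CPM in cKO and 1432 CPM in WT. Krt79, Krt75 and Lgr6 did not overlap between genotypes, while Lrig1 and Sox9 did. The 6 melanocyte markers summed to 59.7 to 118 CPM in cKO and 34.3 to 52.2 CPM in WT. Of these, Pmel and Tyr overlapped between genotypes and the others did not. The 7 sebocyte markers summed to 710 to 2762 CPM in cKO and 436 to 891 CPM in WT. In cKO replicate 4, where Il1a was highest, the upper follicle, melanocyte and sebocyte lists summed to 3264, 59.9 and 710 CPM. That sebocyte sum was the lowest of cKO and below those of WT replicates 1 and 4 (803 and 891 CPM). Of these lists 3, 1 and 1 members were called by edgeR, all higher in cKO, beside 1.32% of all tested genes called in either direction. Their part in the level of Il1a was not tested.

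Il1b, the gene for the cleavage-activated IL-1 of myeloid cells, went the other way at a much lower level. It stood at 3.82, 2.41, 1.45 and 3.31 CPM in cKO replicates 1 to 4, and at 2.86, 13.7, 4.97 and 5.06 CPM in WT replicates 1 to 4. These values came from 60 to 497 counts per library. WT replicate 2 was higher than any other library by a wide margin, and WT replicate 1 lay within the cKO range. The means were 2.75 ± 1.04 against 6.66 ± 4.83 CPM in WT (SD over 4 libraries), a fitted 2.42-fold lower level. The log2 fold change of -1.28 ± 0.49 (SE) did not pass the edgeR test (p = 0.0274, adjusted p = 0.206, exact permutation p = 0.0857). It was -0.63 without WT replicate 2.

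Neutrophils, a source of IL-1β, were checked by 11 markers, of which 10 were in the count table used here and 5 were tested. By edgeR none of the 5 passed, adjusted or at an unadjusted p below 0.05. S100a8 and S100a9, which inflamed keratinocytes also make, held nearly all of the summed level of the list, 1645 to 9519 CPM in cKO and 3707 to 17120 CPM in WT. The other 8 summed to 7.23 to 30.0 CPM in cKO and 18.9 to 36.2 CPM in WT. Most of this was Cxcr2, with at least 218 counts in each library. Retnlg, a resistin-like gene of neutrophils, had 220 counts in WT replicate 2, where Il1b was highest, and at most 8 in the other libraries. Csf3r and Mmp8 were also highest in WT replicate 2, with 42 and 39 counts against at most 17 and 25 elsewhere. Cxcr2, S100a8 and S100a9 were not highest in that library. Cxcr2 had 638 counts in WT replicate 2 and 706 to 1315 in the other WT libraries. S100a8 and S100a9 were also lowest of WT in that library, at 1736 and 1945 CPM. The granule genes Ngp, Ltf and Camp had at most 5 counts, reached by Ngp in WT replicate 2. Mpo was at 0 in 6 of the 8 libraries. The 9 macrophage and monocyte markers summed to 30.6 to 71.0 CPM in cKO and 38.3 to 74.8 CPM in WT, where replicate 2 was the lowest. The part of these cells in the level of Il1b was not tested.

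An antisense transcript gene, Il1bos, overlaps Il1b in the GENCODE M21 annotation, and whether the counts used strand is not stated in the labels. Il1bos, named after its values were seen, had 48, 17, 66 and 20 counts in cKO replicates 1 to 4. In WT replicates 1 to 4 it had 12, 9, 0 and 3 counts, so each cKO library was above each WT library. The means were 0.948 ± 0.563 against 0.161 ± 0.146 CPM in WT (SD over 4 libraries). The fitted log2 fold change of 2.53 ± 0.78 (SE) did not pass the edgeR test (adjusted p = 0.133). Its direction was opposite to that of Il1b. Gm14023, which overlaps Il1a, had 32 to 48 counts in cKO and 45 to 69 counts in WT, far fewer than the 520 to 3417 counts of Il1a. In CPM all its cKO libraries were below all WT libraries (0.832 to 1.14 against 1.18 to 1.91), opposite in direction to Il1a. Its log2 fold change of -0.59 ± 0.26 (SE) did not pass the edgeR test (adjusted p = 0.27). Bco2, which overlaps Il18, did not separate the genotypes, with a log2 fold change of -0.13 ± 0.47 (SE, adjusted p = 0.913 by edgeR).

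**Figure D2:**
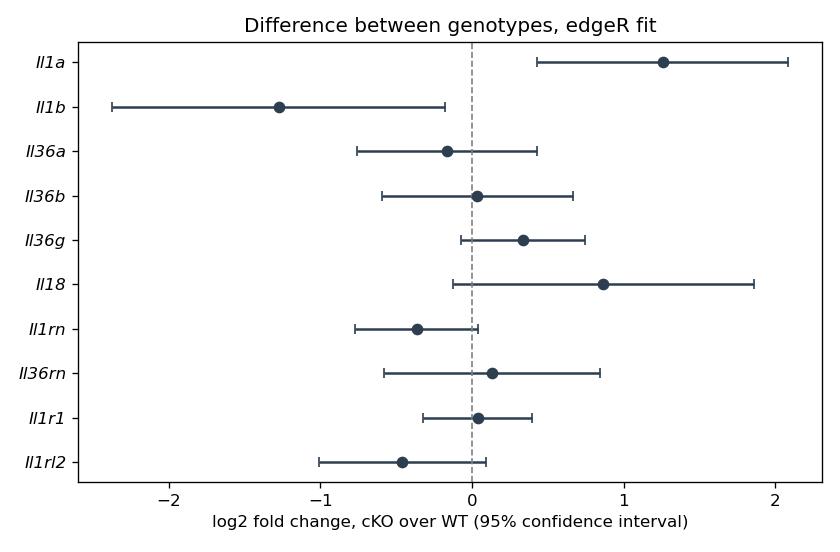
Fitted log2 fold change of each member, cKO over WT, with its 95% confidence interval from the edgeR fit of all tested genes. The intervals of Il1a and Il1b lie on opposite sides of 0 before adjustment, and the other 8 include 0.

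The IL-36 agonists were abundant in both genotypes and had smaller fold changes. Il36g, the gene for IL-36γ, stood at 374, 323, 227 and 323 CPM in cKO replicates 1 to 4. It stood at 200.5, 233, 319 and 235 CPM in WT replicates 1 to 4. The genotypes overlapped through cKO replicate 3, and the other 3 cKO libraries were above all WT libraries. The log2 fold change was 0.34 ± 0.18 (SE, adjusted p = 0.359 by edgeR, exact permutation p = 0.229), and its interval spans 0.952 to 1.68 times the WT level.

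Il36a, the gene for IL-36α, stood at 341, 312, 223 and 236 CPM in cKO and at 224, 305, 494 and 223 CPM in WT, replicates 1 to 4 in each. WT replicate 3 was the highest of the 8 libraries. The log2 fold change of -0.16 ± 0.26 (SE, adjusted p = 0.795 by edgeR) turned to 0.15 without WT replicate 3. Il36b, the gene for IL-36β, stood at 151, 277, 180 and 112 CPM in cKO and at 147, 157, 253 and 146 CPM in WT. Its log2 fold change was 0.03 ± 0.28 (SE, adjusted p = 0.967), with an interval from 0.661 to 1.59 times the WT level, and it was -0.23 without cKO replicate 2. WT replicate 3 stood apart from the other WT libraries in both genes, and in Il36b cKO replicate 2 was higher still.

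Il18 encodes a cytokine that keratinocytes hold as an inactive precursor. It stood at 98.6, 203, 136 and 49.2 CPM in cKO replicates 1 to 4 and at 74.2, 88.7, 75.9 and 28.3 CPM in WT replicates 1 to 4. The first 3 cKO libraries were above all WT libraries, and the lowest library of each genotype was replicate 4. The means were 122 ± 64.8 against 66.8 ± 26.5 CPM in WT (SD over 4 libraries). The log2 fold change of 0.87 ± 0.44 (SE) did not pass the edgeR test (p = 0.0799, adjusted p = 0.33, exact permutation p = 0.229). Without cKO replicate 2 it was 0.52. Langerhans and dendritic cell markers, 6 of 8 tested and none called, summed to 293, 477, 370 and 133 CPM in cKO. In WT they summed to 236, 192, 246 and 267 CPM, replicates 1 to 4 in each. Their order over the cKO libraries was that of Il18, but not over the WT libraries. There, replicate 4 had the highest marker sum and the lowest Il18, and replicate 2 the lowest sum and the highest Il18. The part of these cells in the level of Il18 was not tested.

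Neither antagonist gene passed the test. Il1rn, the gene for IL-1Ra, stood at 116, 170, 141 and 160 CPM in cKO and at 146, 166, 248 and 196 CPM in WT, replicates 1 to 4 in each. The means were 147 ± 23.7 and 189 ± 44.5 CPM (SD, n = 4 each), with a log2 fold change of -0.36 ± 0.18 (SE, adjusted p = 0.318 by edgeR, exact permutation p = 0.143). RefSeq lists 3 start sites for Il1rn, which counts per gene do not separate into secreted and intracellular forms. Il36rn, the gene for IL-36Ra, had the most CPM of the family, with 509, 949, 750 and 361 CPM in cKO and 479, 647, 826 and 396 CPM in WT. Its log2 fold change was 0.13 ± 0.32 (SE, adjusted p = 0.872), and it was -0.11 without cKO replicate 2. In Il36rn the cKO libraries were spread over the whole WT range and beyond it on both sides.

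Of the receptors, Il1rl2, the gene for the IL-36 receptor, stood at 72.1, 180, 129 and 91.4 CPM in cKO replicates 1 to 4. In WT replicates 1 to 4 it stood at 156, 160, 158 and 174 CPM. The WT libraries were close together and 3 of the 4 cKO libraries were below all of them, while cKO replicate 2 was above. The SD of log2 CPM was 0.577 in cKO and 0.0707 in WT. The log2 fold change of -0.46 ± 0.25 (SE) did not pass the edgeR test (adjusted p = 0.355, exact permutation p = 0.143), and without cKO replicate 2 it was -0.72 (adjusted p = 0.0656). Il1r1, the gene for the IL-1 receptor, stood at 14.4, 18.2, 17.5 and 15.1 CPM in cKO and at 13.03, 13.4, 18.1 and 19.1 CPM in WT. Its log2 fold change was 0.04 ± 0.16 (SE, adjusted p = 0.933 by edgeR), with an interval from 0.801 to 1.31 times the WT level.

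Levels were compared between members on the deposited FPKM values, which are scaled to gene length. In WT the order was Il36a (343 ± 134 FPKM), Il36rn (293 ± 90.3), Il36b (217 ± 59.6), Il36g (146 ± 27.2), Il1rn (65.7 ± 14.2), Il1rl2 (31.7 ± 1.61), Il18 (25.2 ± 9.97), Il1a (10.4 ± 4.5), Il1b (3.44 ± 2.48) and Il1r1 (2.53 ± 0.468). Errors are SD over 4 libraries. Among WT neighbours in this order only Il36g with Il1rn, and Il1rn with Il1rl2, had ranges that did not overlap. IL-36 family ligand and antagonist transcripts therefore stood above those of IL-1 and IL-18 in all WT libraries. In cKO the first 5 places held the same genes, with Il36rn (332 ± 121 FPKM) and Il36a (319 ± 51.9 FPKM) exchanged and overlapping. Il1a was at 26.3 ± 12.7 FPKM in cKO, level with Il1rl2 at 23.8 ± 8.42 FPKM. Il1b (1.48 ± 0.575 FPKM) was last in all 4 cKO libraries, below Il1r1 (2.71 ± 0.286 FPKM) without overlap.

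**Figure D3:**
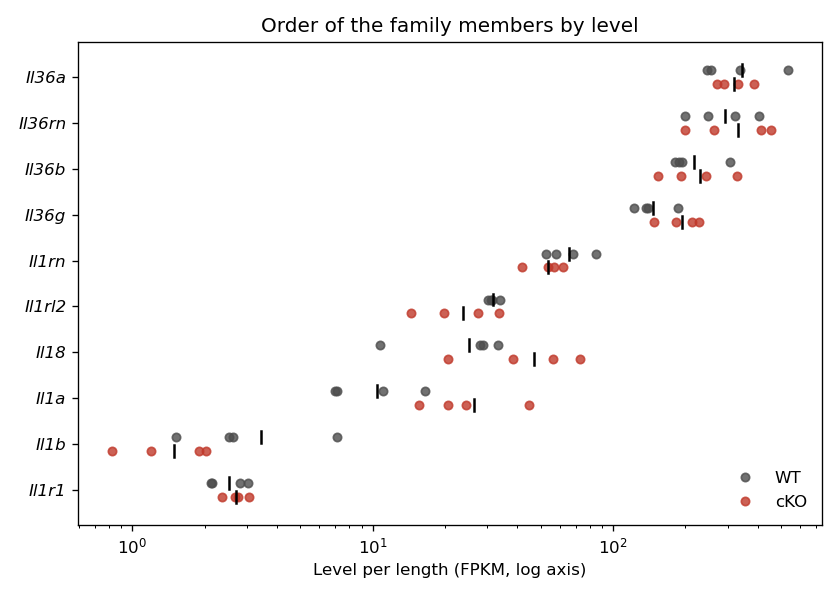
Level per gene length in FPKM on a log axis, with 1 point per library, a black line at the mean of each genotype, and members ordered by their WT mean. The 4 IL-36 ligand and antagonist genes lie to the right of the other members in each library, and Il1b and Il1r1 at the far left.

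Ratios of FPKM within a library set agonist beside antagonist transcripts, with no test. Il1a to Il1rn was 0.585, 0.363, 0.291 and 0.721 in cKO replicates 1 to 4. In WT replicates 1 to 4 it was 0.133, 0.191, 0.195 and 0.104, so the lowest cKO library was above the highest WT library. In all 8 libraries this ratio was below 1, more antagonist than agonist transcript per length. Il1b to Il1rn was 0.0153 to 0.0488 in cKO and 0.0291 to 0.123 in WT, overlapping and far below 1. Il1a to Il1b, a ratio added after the counts were seen, was 11.99, 17.3, 19.0 and 23.5 in cKO and 4.56, 1.56, 6.56 and 2.7 in WT. Per length, Il1a thus exceeded Il1b in each library, and by more in each cKO library than in any WT library. Both genes had the largest fold changes of the family, in opposite directions, so the choice of this ratio itself favours a gap between genotypes.

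For IL-36 the ratios overlapped between genotypes. Il36g to Il36rn was 0.87, 0.403, 0.359 and 1.06 in cKO replicates 1 to 4 and 0.426 to 0.704 in WT. Replicates 1 and 4 of cKO were above all WT libraries and replicates 2 and 3 below them. Il36a to Il36rn ran from 0.656 to 1.48 in cKO and from 1.03 to 1.32 in WT, with the same pair of cKO libraries on each side. Il36b to Il36rn was the most even, at 0.592 to 0.77 in cKO and 0.599 to 0.913 in WT.

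**Figure D4:**
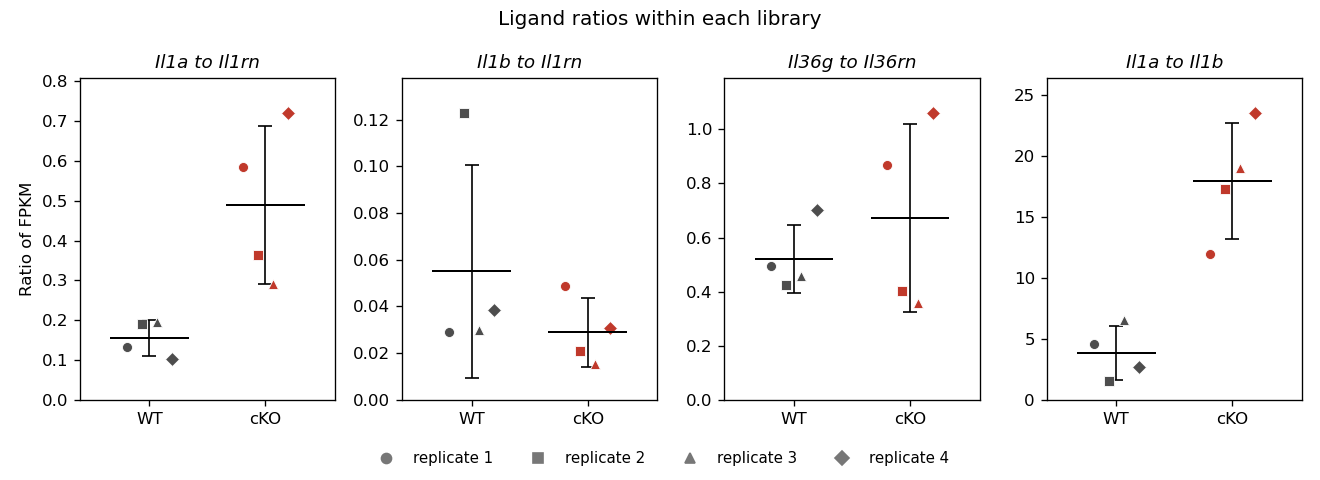
Ratio of FPKM of 2 members within each library, with 1 point per library (marker shape gives the replicate number), a line at the mean and a bar of ± 1 SD (n = 4). Il1a to Il1rn and Il1a to Il1b, the latter chosen after the counts were seen, do not overlap between genotypes, and the other 2 ratios do.

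Il1b and Il1a were the members that varied most over the 8 libraries, with SDs of log2 CPM of 0.949 and 0.883. By root mean square difference of centred log2 CPM, the genes most like Il1a among 10028 were Sema3e, a semaphorin (0.371), Defb6, a β-defensin (0.413), and Hpgd, a prostaglandin-degrading enzyme (0.431). Those most like Il1b were Kcnk1, a potassium channel (0.401), Hba-a1, an α-globin of red cells with a near-identical copy (0.448), and Cd14, the lipopolysaccharide co-receptor of myeloid cells (0.453). All 3 of the latter were highest in WT replicate 2, the library in which Il1b was highest. Cd14 stood at 2.15 to 4.37 CPM in cKO and 4.53 to 9.15 CPM in WT (adjusted p = 0.0874 by edgeR). Hba-a1 stood at 16.5 CPM in WT replicate 2 and at 3.14 to 9.78 CPM in the other libraries.

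Of 9 receptor partners, decoys and related ligands, 7 were tested and none was called by edgeR or DESeq2 (0 at an unadjusted p below 0.05 by edgeR), with a median log2 fold change of -0.09. Il1rap, the accessory chain, had 39.4 ± 4.52 against 41.8 ± 7.97 CPM in WT (log2 fold change -0.09 ± 0.14 SE, adjusted p = 0.805 by edgeR). Il1r2, the decoy receptor that captures IL-1 without signalling, stood at 5.83, 24.3, 47.7 and 3.54 CPM in cKO replicates 1 to 4 and at 13.7 to 23.3 CPM in WT. Its cKO libraries lay on both sides of WT, with replicates 2 and 3 above all WT libraries and replicates 1 and 4 below them. Il18rap, the IL-18 receptor accessory chain, named after its values were seen, was at 4.72 and 8.56 CPM in WT replicates 3 and 4 and at or below 1.09 CPM in the other 6 libraries. T cell markers, 5 of 7 in the table used here, 4 tested and none called by edgeR, summed to 27.9 and 39.8 CPM in these 2 WT libraries and to 7.02 to 21.4 CPM in the others. Their part in the level of Il18rap was not tested.

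None of 14 proximal signalling genes was called by edgeR, and 2 had an unadjusted p below 0.05, beside 18.6% of all tested genes. Their median was -0.04. DESeq2 called 1 of them, as did edgeR without cKO replicate 2. Tollip, an inhibitor of IRAK1, was at -0.14 ± 0.14 (log2 fold change, SE, adjusted p = 0.621 by edgeR) and Tab2, an adaptor of the TAK1 kinase, at 0.17 ± 0.14 (adjusted p = 0.561). Irak4, the first kinase recruited by MyD88, was named after its values were seen. It stood at 15.2, 19.5, 16.5 and 14.0 CPM in cKO and at 23.8, 22.1, 22.9 and 21.3 CPM in WT, all cKO libraries below all WT libraries, where the genotypes did not overlap in either direction in 11.1% of tested genes. Its log2 fold change of -0.47 ± 0.12 (SE) did not pass (adjusted p = 0.0853 by edgeR).

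Of 18 genes for processing and release of the cytokines, 12 were tested, with a median of -0.16. By edgeR, 4 of the 12 had an unadjusted p below 0.05, beside 18.6% of all tested genes. Of the 12, 1 was called, beside 1.32% of all tested genes. The call was Mmp9, a gelatinase able to cleave IL-1β, which fell to 2.26 ± 2.04 CPM from 17.1 ± 4.55 in WT (-2.93 ± 0.57 on the log2 scale, SE, with an adjusted p = 0.0439 by edgeR). This call was lost without any 1 of the WT libraries and without cKO replicate 1 or 3. It was also lost with a replicate block and with limma on log2(FPKM + 1) with no filter. DESeq2 called 2 genes of this list. Capn2 (-0.78 ± 0.29), Casp8 (-0.28 ± 0.11) and Nlrp10 (0.97 ± 0.34, log2 fold change, SE) also had an unadjusted p below 0.05 by edgeR. They were named after their values were seen and did not pass the edgeR test (adjusted p = 0.194, 0.213 and 0.175). Pycard, the inflammasome adaptor ASC, was at -0.14 ± 0.16 (adjusted p = 0.684), and Capn1, a calpain protease, at -0.11 ± 0.10 (adjusted p = 0.588). Casp1, the protease that cleaves IL-1β and IL-18, had 31.5 ± 9.14 against 32.2 ± 10.1 CPM in WT and was named after its value was seen.

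Of 22 genes known to respond to IL-1 or IL-36, 17 were tested. None was called by edgeR, and 5 had an unadjusted p below 0.05, beside 18.6% of all tested genes. DESeq2 called 2 of them, and edgeR 1 without the low-count filter and 1 without cKO replicate 4. Of the 17, 14 had a negative and 3 a positive log2 fold change, with a median of -0.73 beside 0.01 over all tested genes. The most abundant, S100a9 and S100a8, were at -0.97 ± 0.75 and -1.03 ± 0.62 (log2 fold change, SE, adjusted p = 0.528 and 0.413 by edgeR). The largest values of each sign were in chemokine genes, named after their values were seen. Ccl20, which attracts CCR6-bearing cells, stood at 28.9, 5.01, 6.32 and 42.4 CPM in cKO and at 3.62, 2.13, 12.1 and 2.65 CPM in WT (log2 fold change 2.02 ± 0.79 SE, adjusted p = 0.214). Cxcl2, which attracts neutrophils, stood at 1.48, 0.672, 0.121 and 1.5 CPM in cKO and at 0.682, 11.03, 4.89 and 1.98 CPM in WT (-2.29 ± 0.89, adjusted p = 0.209). WT replicate 2 was the highest library for Cxcl2, as for Il1b, and cKO replicate 4 the highest for Ccl20, as for Il1a. Among the remaining tested genes, Saa3 was also highest in WT replicate 2, and Cxcl1, Defb4 and Ptgs2 in cKO replicate 4. Nfkbiz, Nfkbia, Tnfaip3, Zc3h12a, Il23a and Cxcl3 were highest in WT replicate 3. S100a8, S100a9, Lcn2 and Defb14 were highest in WT replicate 4, and Ccl2 in cKO replicate 1.

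**Figure D5:**
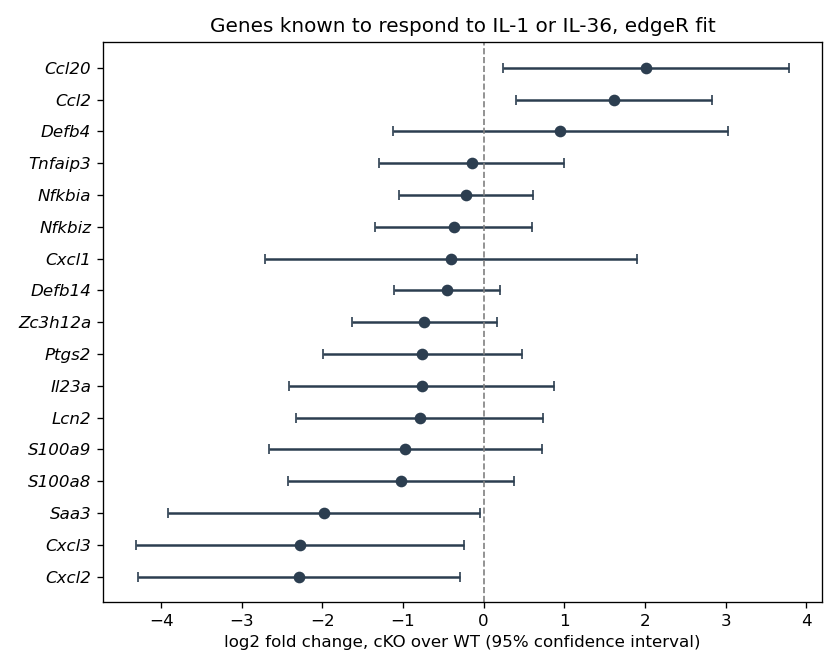
Fitted log2 fold change, cKO over WT, of the 17 tested genes known to respond to IL-1 or IL-36, with 95% confidence intervals from the edgeR fit. Ccl20, Ccl2 and Defb4 are positive, the other 14 are negative, and none passed the adjusted threshold.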

How the data were processed

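RNA was measured in 8 epidermis libraries, grouped by the genotype in their labels. The authors deposited unnormalised read counts for each gene symbol, and FPKM values, made with HISAT2 and HTSeq per the submitters' processing notes. For versions, genome build, annotation and strand setting, nothing is given in the sources used here. The deposited FPKM equal the counts scaled by gene length and column total, with the same implied length in all libraries for 20863 of 20863 genes counted in 2 or more libraries (relative tolerance 1e-04). So both tables hold the same reads.

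Of 23171 genes, 14004 passed filterByExpr. The edgeR 4.0.16 quasi-likelihood test (R 4.3.3) with TMM factors (0.934 to 1.08) compared cKO with WT, with Benjamini-Hochberg adjustment over all tested genes and calls below 0.05. SEs are those implied by the F statistic. The two-sided exact permutation test on log2 CPM used all 70 splits of 4 against 4, with a smallest possible p of 0.0286. The edgeR p-values set the difference between genotypes against the spread between these libraries. On simulated counts for cKO against WT over 14004 genes, 57 of 100 genes changed 2-fold and 91 of 100 changed 4-fold were called, and 6 of 154 calls were false.

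Members, gene lists and tests were chosen with earlier results of these data known. Named genes are all members, each pathway list's called genes and its 2 most abundant uncalled ones, and, for the 2 members with the largest SD of log2 CPM, the 3 most similar genes of at least 4 CPM, leaving out unnamed gene models and pseudogenes. Other named genes overlap a member or were picked after their values were seen, as stated beside them. Alternatives were DESeq2 1.42.0 and limma-voom (limma 3.58.1) on the same genes, RLE factors, library size only, no filter, a minimum of 1 CPM in 4 libraries, limma tests of FPKM with a pseudocount of 1 or 0.1 before the log2 for genes of mean FPKM at least 0.5, the former without that filter, a replicate block, and leaving out each library.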

Additional observations from a re-analysis of the deposited data

Results flagged for a closer look

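Among the members, Il36b in WT was singled out by Dixon's test at the 95% level, because WT replicate 3 (252.7 CPM) was far from the other WT libraries (146 to 157 CPM). Its gap to the nearest library was 0.899 of the group's range, above the critical value for 4 samples. Chance gives such a result in about 1 of 20 groups, and 20 groups (10 members in 2 genotypes) were examined.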

How the results depend on the processing

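Over 18 alternatives the 10 members gave 180 log2 fold changes, of which 168 kept their direction. Il1a, Il1b, Il18, Il36g, Il1rn and Il1rl2 never changed sign. Il1a ranged from 0.93 to 1.59 and Il1b from -1.52 to -0.63. Members called numbered 1 with DESeq2 (Il1a, adjusted p = 0.0115), 1 with the replicate block (Il18, 0.81, adjusted p = 0.0492) and 0 under the other 16, including each fit without 1 library (lowest 0, highest 0). Over all alternatives the adjusted p ranged from 0.0115 to 0.273 for Il1a and from 0.0492 to 0.555 for Il18. The sign turned for Il36b with limma-voom (-0.0027), the replicate block (-0.0067) and without cKO replicate 2 (-0.23) or WT replicates 1 (-0.04), 2 (-0.01) and 4 (-0.05). It turned for Il36rn without cKO replicate 2 (-0.11) or WT replicate 4 (-0.02), for Il1r1 without cKO replicate 2 (-0.0032) or WT replicates 1 (-0.041) and 2 (-0.03), and for Il36a without WT replicate 3 (0.15). Without 1 library, Il36a ranged from -0.30 to 0.15, Il36b from -0.23 to 0.26, Il36rn from -0.11 to 0.34 and Il1r1 from -0.041 to 0.13. The cause was not tested. Genes called over the whole table numbered 185, against 1208 with DESeq2, 349 without the low-count filter, 19 with limma on log2(FPKM + 1) without a filter, and 8 to 506 without 1 library. The replicate block called 216 and did not call Mmp9. Same-numbered libraries correlated in their deviations at -0.0884 to 0.182, and 2 of the 4 cKO libraries correlated best with their own number, so the numbers were not taken as pairs. With 60 to 497 counts, depth limits Il1b most among the members.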
